A study of Mus musculus with 8 samples.

Results

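The clustered protocadherin genes occupy 1 stretch of mouse chromosome 18, taken here as positions 37080000 to 38010000 of build mm9 (930 kb). Every peak of 5-hydroxymethylcytosine (5hmC) overlapping that stretch was kept, which gave 51 of the 393283 peaks in 8 lists. The peaks came from hippocampal DNA of C57BL/6 mice in 4 groups of 2 samples. Young control mice were labelled 6 weeks old and kept in standard cages, and young enriched mice were of the same labelled age. Aged control mice were labelled 18 months old and kept in standard cages, and aged enriched mice were of that labelled age too. Enrichment was 5 h a day over 4 weeks in a large cage furnished with objects to explore, tunnels and an exercise wheel. The tissue is whole hippocampus, so neurons and glia were measured together, and no cell type can be checked in a list of DNA peaks. Whether both samples of a group came from different mice is not stated in the labels, so every p-value reflects the spread between samples alone, and that spread may be technical.

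Clustered protocadherins are cell surface adhesion proteins through which neurons tell their own branches from those of other cells. The genes stand in 3 tandem clusters, in the order Pcdha, Pcdhb and Pcdhg. In the alpha and gamma clusters each variable first exon has its own promoter and is spliced to constant exons shared by the whole cluster at its far end. Genes of the beta cluster have a single coding exon each and no constant exons. A neuron uses few of the variable promoters, and that choice is known to involve DNA methylation and looping by CTCF and cohesin. 5hmC is made from 5-methylcytosine by TET enzymes and is abundant in neurons, mostly in gene bodies and enhancers. The RefSeq gene table names 14 Pcdha, 22 Pcdhb and 22 Pcdhg genes here, from Pcdha1 to Pcdhgc5, and 1 of these 58 (Pcdhgb8) is a pseudogene. That table is on another build than the peaks, so no peak was assigned to a single gene, exon or cluster, and positions below are distances from the start of the locus.

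The lists held 25548 to 78980 peaks, and the reads behind each list are unknown. One library, aged enriched replicate 2, had narrow peaks throughout (median 430 bp over its list, against 650 to 952 bp in the other 7). MACS, the peak caller, gives each peak a score that grows as its p-value falls. Scores are the authors' values and are printed to describe peaks. Raw scores also serve to name 1 region and, in an alternative, as a minimum of 100 in every list, but they depend on the unknown depth of a list. In aged enriched replicate 2, 22310 of 30832 peaks scored at least 100, against 2535 of 25548 in aged enriched replicate 1. Ranks are therefore given as percentiles within a list, where 100 is the strongest peak.

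5hmC peaks were sparse across the protocadherin clusters in every sample. The locus held 7 and 9 peaks in the young control lists and 7 and 7 in the young enriched lists. It held 5 and 8 peaks in the aged control lists and 4 and 4 in the aged enriched lists. Peaks covered 0.171% to 1.17% of the locus. The same lists had 10.4 to 32.1 peaks per Mb over the rest of the autosomes (chromosome ends taken at the last peak), against 4.30 to 9.68 per Mb in the locus. The locus was thus below the rest in 8 of 8 samples, at 0.350 times its density by geometric mean. The log2 ratio was −1.51 ± 0.40 (SD, n = 8), with a two-sided exact sign-flip permutation p = 0.00781, the smallest that 8 samples allow. After Benjamini-Hochberg adjustment over 3 measures this exact permutation p was 0.0234. It tells that the samples go the same way, not how rare such a density is among stretches of the genome. How reads that match several protocadherin genes were treated is not given, and its part in the low density was not tested.

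The neighbourhood on both sides was rich in peaks. The 930 kb before the locus held 14 to 43 peaks per list, and the gene table lists Hars2, a histidyl-tRNA synthetase gene, and Zmat2 shortly before Pcdha1. The 930 kb after the locus held 23 to 62, and the table lists Diaph1, an actin regulator, and Hdac3, a histone deacetylase, shortly after Pcdhgc5. No peak was assigned to any of these genes, and no list had a peak in the 154 kb just before the locus. Against both flanks the locus had 0.196 times the density, lower in 8 of 8 samples (log2 ratio −2.35 ± 0.44, SD, n = 8; exact permutation p = 0.00781, adjusted p = 0.0234). The contrast with the genome as a whole was milder when read by windows. Of 2333 autosomal windows of 930 kb with a peak, 35.3% had a lower mean over samples than the 6.38 peaks of the locus, and the median was 13.9. The locus was thus far below its flanks and below the middle of all windows, but not among the sparsest.

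**Figure D1:**
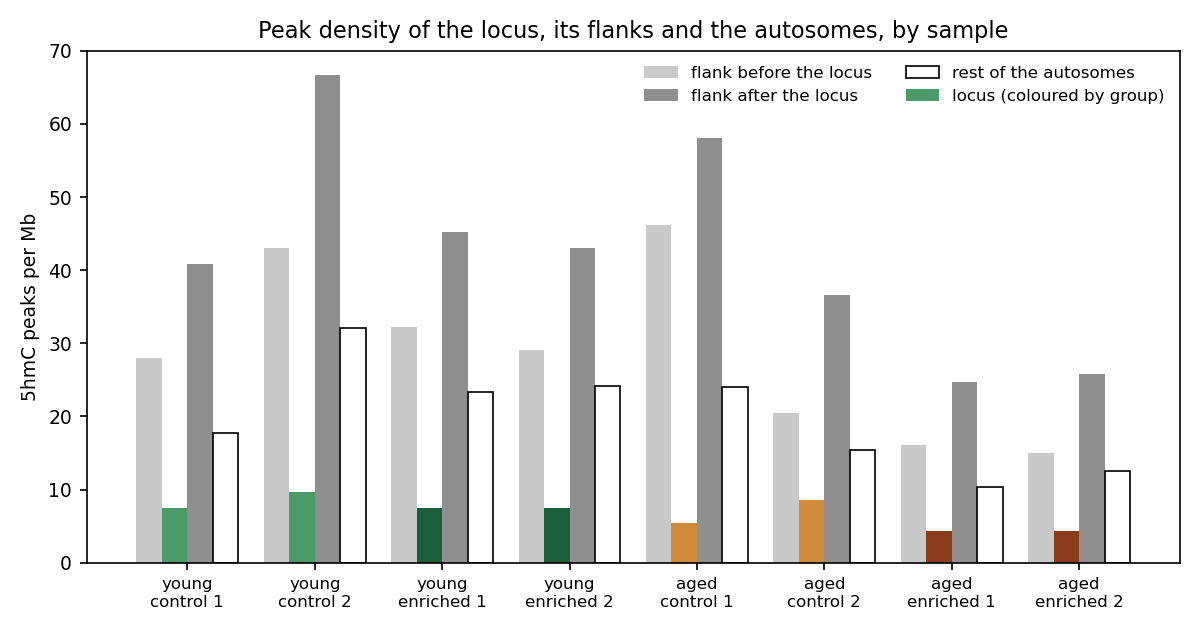
Peaks per Mb (vertical axis) in each of the 8 samples for the locus (coloured bar), the flank of equal length before it (light grey), the flank after it (dark grey) and the rest of the autosomes (white). The coloured bar, at 4.30 to 9.68 peaks per Mb, is the lowest of the 4 bars in each sample.

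**Figure D2:**
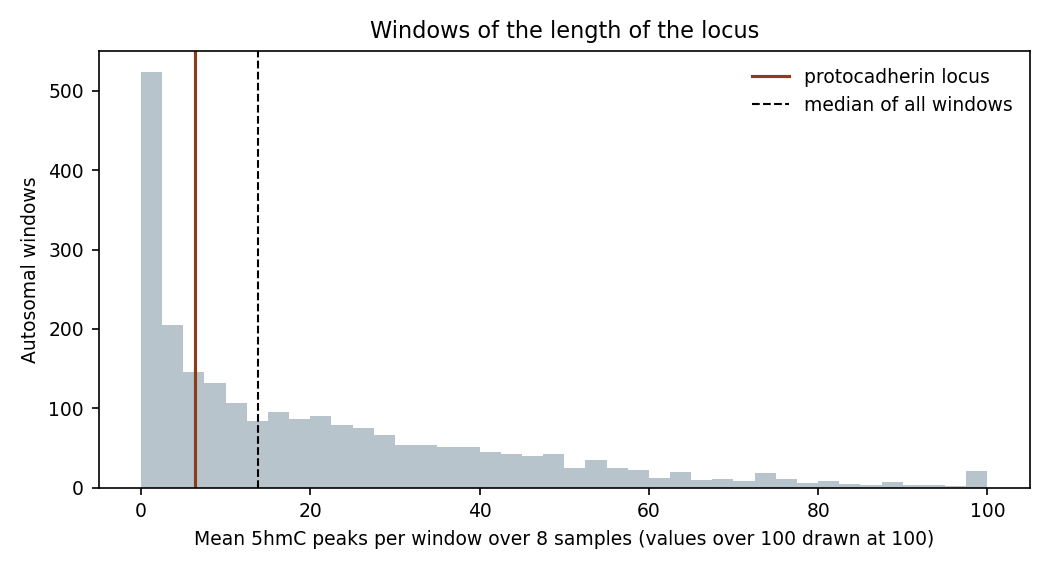
Histogram of the mean number of peaks over 8 samples in 2333 autosomal windows of 930 kb. The locus (solid line, 6.38 peaks) lies left of the median (dashed line, 13.9 peaks), and 35.3% of windows lie further left.

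The peaks that were present in the locus had widths and ranks spread around those of their lists. Their median width was lowest in aged enriched replicate 2 (403 bp) and highest in aged control replicate 1 (1236 bp). The log2 ratio to the rest of each list was 0.10 ± 0.24 (SD, n = 8; exact permutation p = 0.273, adjusted p = 0.410). Their median score percentile was lowest in aged enriched replicate 1 (22.3) and highest in aged control replicate 1 (75.5). It differed from 50 by 4.40 ± 16.3 points (SD, n = 8; exact permutation p = 0.469, adjusted p = 0.469). Neither measure differed from the rest of the list by more than the spread between samples.

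The peaks fell on both sides of a long empty stretch. The first peak lay 101.6 kb from the start of the locus, and the last ended 1.56 kb before its end. No list had a peak from 37349077 to 37798027, a stretch of 449 kb or 48.3% of the locus. Of 156641 stretches between neighbouring merged peaks on the autosomes, 523 (0.334%) were as long, 23 of them on chromosome 18. The median was 3.04 kb. The share of 0.334% counts stretches and not sequence, so it does not tell how much of the autosomes lies in stretches as long. The 449 kb were also picked as the longest empty stretch of the locus. The 269 kb before the empty stretch held 15 of the 51 peaks and the 212 kb after it held 36. Of 10 windows of 93 kb numbered from the start of the locus, window 10 held most peaks, with 4.38 ± 1.06 per sample (SD, n = 8). Next came window 3 (1.12 ± 1.13) and window 2 (0.75 ± 0.71). Windows 1, 4, 5, 6, 7 and 9 held 0 peaks in all 8 lists. Window 8 held 1 peak, in aged control replicate 2. With its 4.38 peaks window 10 was denser than 77.1% of the 17082 autosomal windows of that length that held a peak in any list, where the median was 1.62. Windows with no peak in any list are not among these.

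**Figure D3:**
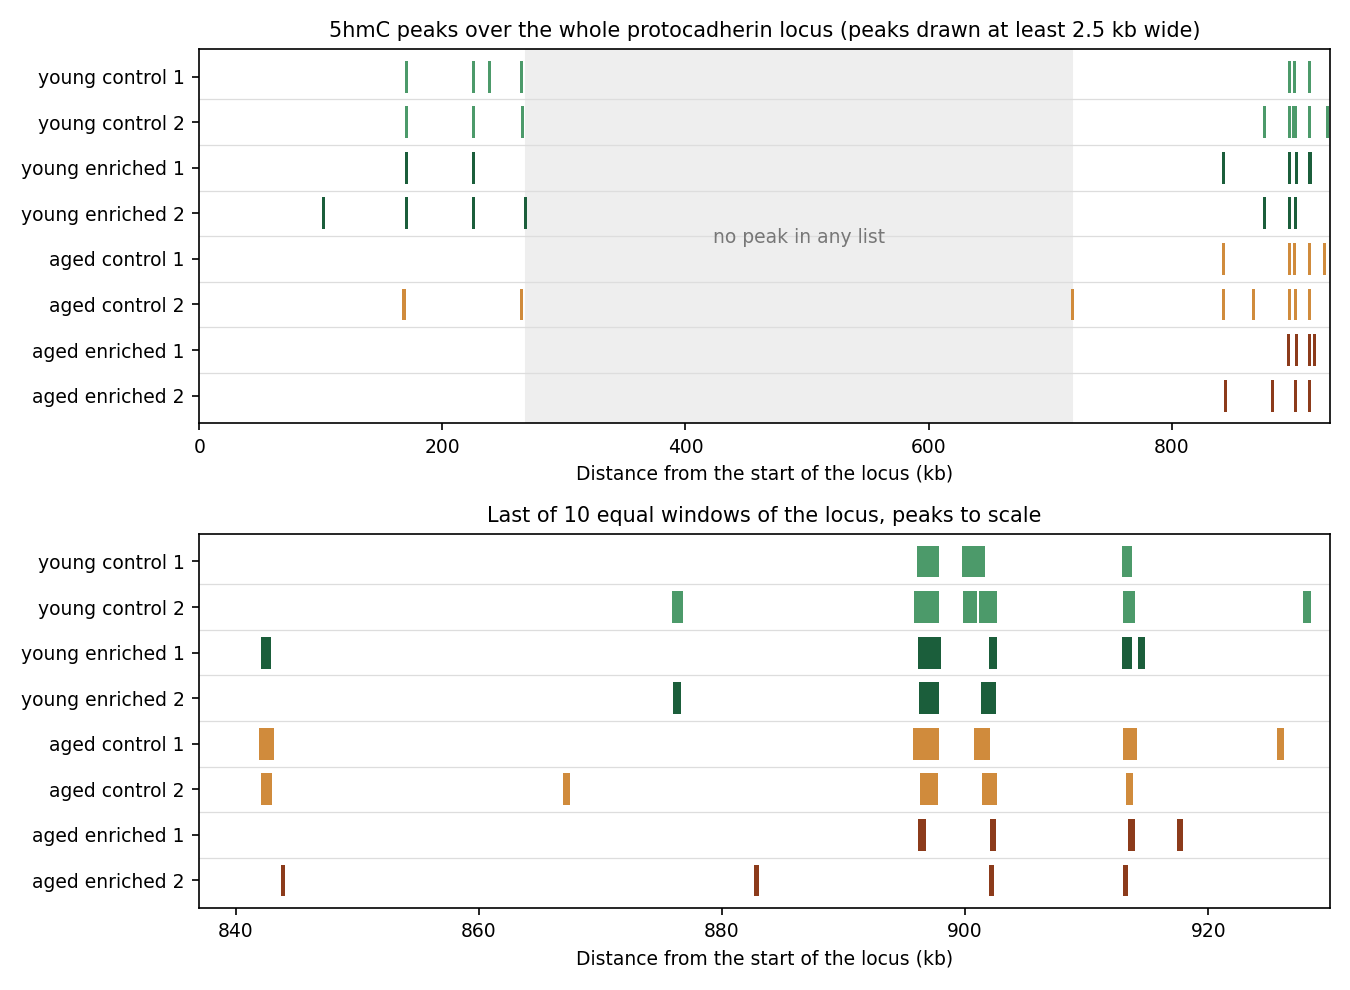
Positions of the 51 peaks by sample, in kb from the start of the locus; the upper panel shows the whole locus and the lower panel the last of its 10 equal windows. Most samples have peaks near 896, 900 and 913 kb, though near 900 and 913 kb no base is under the peaks of more than 6 samples. The grey band marks the 449 kb without a peak in any list.

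Joining peaks that overlapped by at least 1 bp gave 20 regions in the locus. Of these, 12 (60%) had a peak in a single sample, against 46.7% of 156744 regions in the genome. A peak in 7 or 8 samples was found for 3 regions (15%), against 4.21% in the genome. All 3 lay close together in window 10, toward the end of the locus. In the gene table the order of the clusters ends with gamma, closing with Pcdhgc3, Pcdhgc4 and Pcdhgc5. No region was assigned to a gene or cluster.

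The region at 37979758 to 37982665 was the only one of the 20 with a peak in all 8 samples, a pattern shown by 1.31% of regions in the genome. It was also the widest, at 2908 bp. Its score was 184 and 142 in young control, 73.0 and 109 in young enriched, 55.4 and 142 in aged control, and 56.7 and 102 in aged enriched samples. By rank within the list it ran from the 17.3 percentile in aged control replicate 1 to the 95.9 percentile in young control replicate 1. Both aged control samples are thus far apart here, at the 17.3 and 94.1 percentiles. The peaks formed a chain rather than 1 shared core: no base was under more than 6 of the 8 samples' peaks.

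The highest score in the locus, in young control replicate 2, belonged to the region at 37975740 to 37977988. It held the top-ranked peak of the locus in 5 of the 8 samples, the 4 young and aged control replicate 1. Scores there were 227 and 290 in young control, 100 and 163 in young enriched, 129 and 114 in aged control samples and 53.2 in aged enriched replicate 1. Aged enriched replicate 2 had no peak there. A core of 462 bp, 37976309 to 37976770, was under the peak of all 7 samples. By rank both young control peaks were in the top of their lists (97.8 percentile each), and the peak of aged enriched replicate 1 was at the 19.4 percentile. Ranks of the other 4 samples ran between these, from 76.4 to 93.2.

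The third of these regions, at 37992898 to 37994156, is described although the rule for naming regions did not select it. It had a peak in 7 samples, all but young enriched replicate 2. In aged enriched replicate 2 it was the strongest peak of the locus, with a score of 189 (92.3 percentile). In the other 6 samples its scores ran from 50.3 to 101 and its ranks from the 1.44 to the 75.5 percentile. No base was under the peaks of more than 6 of the 7 samples, and the aged enriched peaks did not overlap each other.

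**Figure D4:**
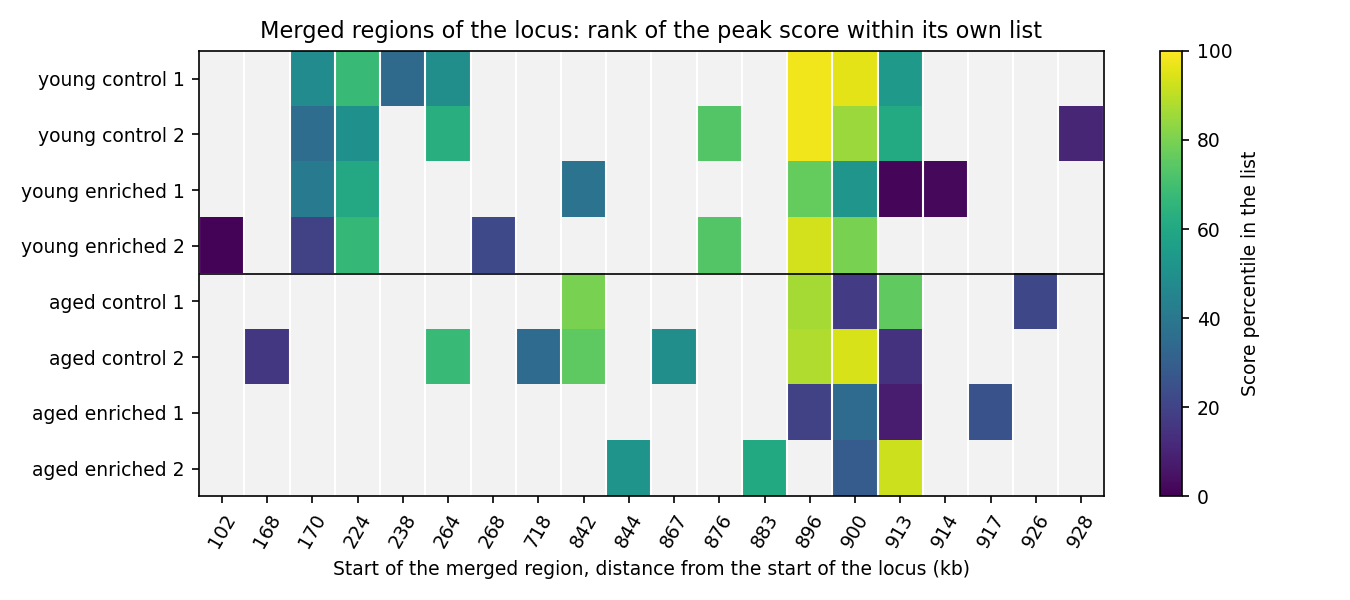
The 20 merged regions (columns, by start in kb from the start of the locus) in the 8 samples (rows); colour gives the percentile of the highest peak score within the sample's own list, and pale cells have no peak. The columns at 896, 900 and 913 kb are filled in 7, 8 and 7 samples, and those at 170 and 224 kb in the 4 young samples only.

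Young samples gave 13 of the 15 peaks before the empty stretch and 17 of the 36 after it. Of all peaks in the 8 lists 60.9% came from young samples, and of those in the locus 58.8%. In the 269 kb before the empty stretch, young control lists had 4 and 3 peaks and young enriched lists 2 and 4. Aged control lists had 0 and 2 peaks there, and both aged enriched lists had 0. Young enriched replicate 1 and aged control replicate 2 thus had the same number, and the other 3 aged samples had none. In the 212 kb after the empty stretch the counts were 3, 6, 5 and 3 in the young and 5, 6, 4 and 4 in the aged lists, which overlap. These stretches were set after the values were seen, so their counts are given without a test. Lists held 43709, 78980, 57492 and 59462 peaks in the young and 59260, 38000, 25548 and 30832 in the aged samples, in the same order, and the part of list length in these counts was not tested.

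A peak in all 4 young samples and no aged sample was found at 2 of the 20 regions (10%), against 0.894% of regions in the genome. At 37249790 to 37251179 the scores were 69.8 and 67.5 in young control and 65.8 and 56.5 in young enriched samples, and 862 bp were common to the 4 peaks. An aged control replicate 2 peak at 37248154 to 37248712 lay close by without overlapping. At 37304360 to 37306120 the scores were 86.2 and 78.8 in young control and 80.0 and 88.4 in young enriched samples, with 945 bp in common. Within their lists these peaks ranked at the 19.8 to 67.2 percentiles. With lists cut by score to the 25548 peaks of the shortest, the count went from 2 to 0 of 13 regions in the locus. No region had a peak in all 4 aged and no young sample (0.00957% in the genome).

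The length of the locus under peaks was 8432 and 10853 bp in young control and 6943 and 7168 bp in young enriched samples. It was 6459 and 6864 bp in aged control and 2254 and 1590 bp in aged enriched samples. Every aged sample was below every young sample, though aged control replicate 2 and young enriched replicate 1 differed by little. By geometric mean the aged length was 0.432 times the young (two-sided exact permutation p = 0.0286, the smallest that 4 against 4 allow). Adjusted over the 6 tests of this family it did not pass (adjusted p = 0.171). Mean length was 4292 ± 2755 bp (SD, n = 4) with age and 8349 ± 1793 bp (SD, n = 4) in the young. Relative to the length under peaks of the whole list the log2 difference went from −1.21 to 0.0026.

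Aged lists had 5.25 ± 1.89 peaks in the locus (SD, n = 4) and young lists 7.5 ± 1 (SD, n = 4). The ratio of geometric means was 0.675 (exact permutation p = 0.114, adjusted p = 0.343). As a share of the list the log2 difference turned from −0.57 to 0.12, and in equally long lists to 0.25. Tested with limma across all 1604 windows of 930 kb with a mean of at least 5 peaks, the locus had a log2 difference of 0.20 ± 0.34 SE between aged and young samples in peaks per 1000000 peaks of the list (limma adjusted p = 0.855). No window passed (0%), with 144 at an unadjusted p under 0.05. Without aged control replicate 2 the value for the locus was −0.10.

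Of the 10 windows of 93 kb, 2 had the mean of 1 peak needed for a test, and limma called neither for age (adjusted p under 0.05 in 0.00916% of 10921 windows). Window 10 had a log2 difference of 0.79 ± 0.33 SE between aged and young samples per 1000000 peaks of the list (limma adjusted p = 0.529, unadjusted p = 0.0226). Window 3, in the first stretch, had −0.61 ± 0.49 SE (limma adjusted p = 0.757). The median over all windows was 0.11. With a pseudocount of 4 peaks in place of 1, limma called 1 of the 2 windows and 512 of 10921 in the genome.

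No change of the locus with housing was detected. Enriched lists had 5.5 ± 1.73 peaks there (SD, n = 4) and control lists 7.25 ± 1.71 (SD, n = 4), a ratio of geometric means of 0.747 (exact permutation p = 0.229, adjusted p = 0.343). The length under peaks was 4489 ± 2978 bp and 8152 ± 1992 bp, a ratio of 0.458 (exact permutation p = 0.171, adjusted p = 0.343). As a share of the list the log2 difference went from −0.42 to −0.039 for peak number and from −1.13 to −0.36 for length. In peaks per 1000000 of the list, limma gave a log2 difference of 0.024 ± 0.34 SE over both ages (adjusted p = 0.978). The value turned negative without young control replicate 2 (−0.11), aged control replicate 1 (−0.28) or aged enriched replicate 1 (−0.044). Limma called 0 of the 1604 windows for housing over both ages (0%), with 197 at an unadjusted p under 0.05.

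In young mice the log2 difference with housing was −0.15 ± 0.48 SE (limma adjusted p = 0.998), where no window passed (0%) and 9 had an unadjusted p under 0.05. Without young control replicate 1 it was 0.11. The 1 region with a peak in both young control and neither young enriched sample (2.78% of regions in the genome) lay at 37344414 to 37346121. Scores there were 70.5 and 92.0, and 79.9 in aged control replicate 2, whose peak overlapped both. The 2 young control peaks did not overlap each other, so without aged control replicate 2 the region falls apart and the count is 0. No region had a peak in both young enriched and neither young control sample (2.13% in the genome).

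In aged mice the log2 difference with housing was 0.20 ± 0.48 SE (limma adjusted p = 0.829), in a comparison in which limma called 3.18% of windows. Over all windows the median was 0.11, so the locus lay near the middle of them, above 57.6% of windows. Without aged control replicate 1 the value for the locus was −0.41, and with no scaling to list length it was −0.56. Before scaling, aged enriched lists had 4 and 4 peaks in the locus and aged control lists 5 and 8. The length under peaks was 2254 and 1590 bp against 6459 and 6864 bp. The aged enriched lists were the shortest, and the part of list length was not tested. The 1 region present in both aged control samples but absent from the aged enriched ones (5.6% in the genome) was 37921888 to 37923123, with scores of 109 and 88.1. Young enriched replicate 1 had a peak there too (64.2), and 861 bp were common to the 3. Aged enriched replicate 2 had a peak of its own that began just beyond it, at 37923730 to 37924078. No region had a peak in both aged enriched and neither aged control sample (0.561% in the genome), in all 4 control and no enriched samples (0.209%) or the reverse (0.014%).

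The effect of housing did not differ detectably between ages. The difference of the 2 effects was 0.36 ± 0.68 SE on the log2 scale (limma adjusted p = 0.874, 0.0623% of windows called), and −0.26 without aged control replicate 1. Values not scaled to the list were tested by permuting housing within ages. In these the difference was −0.48 for peak number (exact permutation p = 0.667, adjusted p = 0.667). For length under peaks it was −1.38 (exact permutation p = 0.333, adjusted p = 0.40). As a share of the list these differences were 0.27 and −0.035. The smallest p that this test allows is 0.0556. For the 93 kb windows limma called neither window of the locus in any comparison involving housing (0% of windows in the genome for each). At an unadjusted p under 0.05 there were 0 of the 2, against 755 of 10921 windows for housing, 184 in young, 1379 in aged and 773 for the difference between ages.

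**Figure D5:**
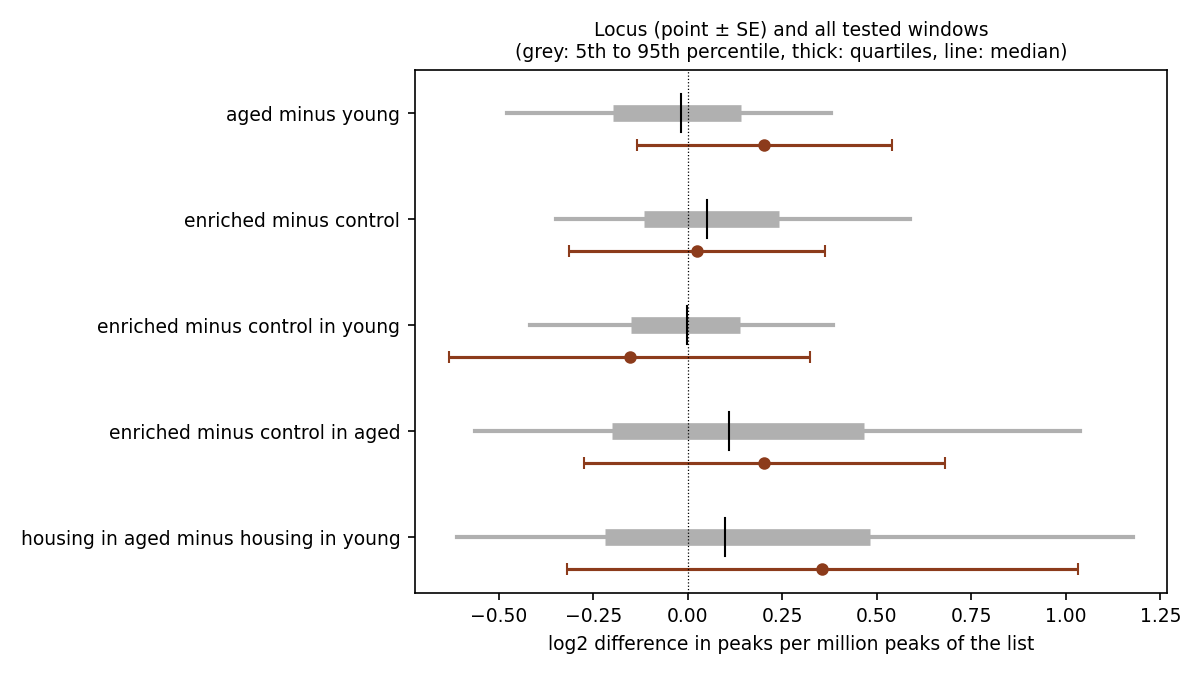
Log2 differences in peaks per 1000000 peaks of the list for 5 comparisons: the locus (point with SE) and all 1604 tested windows (grey). Every point lies within the 5th to 95th percentile of the windows, and every SE bar crosses 0.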

How the data were processed

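Each of 8 samples of hippocampal DNA, in 4 groups of 2, was enriched for 5hmC by glucosylation, biotin labelling and streptavidin capture and sequenced, per the labels' protocols. The deposited files are peak lists with a position and a score per peak. Build mm9 and the programs MACS 1.4.2, Bowtie 0.12.9 and CASAVA 1.4 are credited to the submitters' processing notes. Lists were called per sample. Not given in the sources used here are depth, caller settings, the background library and how reads that match several protocadherin paralogs were treated. Intervals that depend on read counts were therefore left out.

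Coordinates are counted from 1. Windows of 930 kb and 93 kb were laid so that the locus filled whole windows, peaks were counted by midpoint, and log2((peaks + 1) per 1000000 peaks of the list) was fitted with limma 3.58.1 (R 4.3.3, intensity trend, 4 groups, Benjamini-Hochberg over all windows, threshold 0.05) after a filter at a mean of 5 peaks or 1 peak. The pseudocount shrinks changes in poor windows and adds more to shorter lists. The code was tested on simulated counts. Single values were tested by exact two-sided permutation over samples. Regions named were those with a peak in all samples, the leading ones of each group pattern, the widest and the one with the highest score; windows named were the 3 with most peaks and, being tied, all with none. Alternatives were other pseudocounts, filters, scalings, list cuts, bounds, window lengths, merging rules, a replicate block and leaving out each sample. Gene names and their order come from RefSeq on GRCm38.p6, and none of its coordinates were used. Members and settings were chosen with earlier results of these data known.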

Additional observations from a re-analysis of the deposited data

Results flagged for a closer look

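Of 18 sets of values checked for a sample standing apart by Dixon's test, 2 had one. Chance gives about 1 in 20 for unrelated sets of continuous values, but these sets share samples and include small tied counts. Young control replicate 2 had 9 peaks in the locus against 7 in each of the other young samples, and its list was the longest. Relative to the density of the rest of its list, young control replicate 1 had 0.424 times the density in the locus, against 0.302 to 0.322 in the other young samples.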

How the results depend on the processing

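Of 372 alternative values, 328 kept the direction and side of the threshold of the value in the report, or a count within 1.5 times of it. Some could hardly change. The log2 difference for housing within 1 age is the same without a sample of the other age. Counts of called windows in the locus rest on few tested windows. For the limma value of housing over both ages, 9 of 16 alternatives were the same. The low density of the locus held in all 10 alternatives run for it, with log2 ratios from −2.35 to −1.35. The adjusted exact permutation p was 0.0234 to 0.0469. Before adjustment the exact permutation p was 0.00781 or 0.0156, each the smallest that its number of samples allows. These p-values therefore do not grade the alternatives. No limma value for the locus passed under any alternative, and directions were not stable. For age the locus had −0.48 with no scaling to list length, and −0.10 to 0.51 when single samples were left out. For housing it had −0.021 with a pseudocount of 0.25, −0.21 after quantile normalization, −0.36 with no scaling, −0.13 for length under peaks and −0.28 to 0.33 without single samples. For housing in young mice it had −0.42 to 0.11 without single samples. For housing in aged mice these were −0.25 after quantile normalization, −0.56 with no scaling and −0.41 to 0.82 without single samples. For the difference between ages they were −0.070, −0.39 and −0.26 to 0.97. With a pseudocount of 4 peaks, 1 window inside the locus was called for age. In exact permutation tests of peak number, age gave 0.25 in equally long lists and 0.12 as a share of the list, and the difference between ages gave 0.50 and 0.27. Length under peaks gave 0.0026 for age as a share. The cause of these changes was not tested.

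Regions in all samples went from 1 to 0 when 50% of a region had to be under peaks, with a score of at least 100, and in equally long lists, and were 1 to 2 without single samples. Those of 4 young and no aged samples went from 2 to 0 with a score of at least 100 and in equally long lists, and stayed at 2 without any single sample. Young control only went from 1 to 0 in both, and was 0 to 2 without single samples. Aged control only went from 1 to 2 when 50% of a region had to be under peaks, and was 1 to 5 without single samples (5 without aged control replicate 1). Young enriched only and aged enriched only were 0 to 2 without single samples, and 4 control and no enriched 0 to 1. The locus window could not be fitted with a score of at least 100, in equally long lists or with bounds narrowed by 50 kb, since it fell below the filter. With a score of at least 100, aged enriched replicate 1 had 0 peaks in the locus, so the permutation tests were not run. Aged enriched replicate 2 kept all 4 of its peaks there, young lists kept 1 to 3 and aged control lists 3 and 2.

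The replicate numbers did not pair samples: deviations of same-numbered samples correlated by −0.14 to 0.076 over 1604 windows. With a replicate block the limma adjusted p for the locus was 0.856 for age, 0.978 for housing, 0.998 in young and 0.837 in aged mice and 0.881 for the difference between ages, and 0 windows inside the locus were called. The depth of the lists is unknown, and with 4 to 9 peaks per sample only large changes could be seen.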

Other observations

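Within the locus, peaks of young samples overlapped each other more on average than those of other pairs. The length under both peaks as a percent of the length under either was 42.1% on average in the 6 pairs of young samples (36.7% to 48.4%). It was 15.8% in the 6 pairs of aged samples (6.20% to 37.7%) and 19.5% in the 16 pairs of a young and an aged sample (4.15% to 35.9%). The pair of aged control samples, at 37.7%, lay within the range of the young pairs. Aged pairs that included an aged enriched sample ran from 6.20% to 17.0%. Pairs share samples and the index falls where lengths are short or unequal, so these values are a description with no test. They cover the locus only and do not tell whether it differs in this from the rest of the lists. The first peak after the locus lay 5.38 kb beyond its end and the last one before it 154 kb ahead of its start. No peak straddled a bound.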
